A study of Homo sapiens with 3 samples.

Results

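The 8 genes described here carry iron into the cell, store it, release it and set the balance between these steps. They are TFRC and SLC11A2 (uptake), FTH1 and FTL (storage), NCOA4 (ferritin turnover), SLC40A1 (export), and ACO1 and IREB2 (regulation). They were taken by gene symbol from the 58039 genes of the deposited table, and each symbol matched a single row. They were selected on their FPKM and deposited bounds in these 3 libraries, with earlier results known, so the comparison of knockdown with control is given for them as a description and without a test. RNA came from T47D, a human estrogen receptor-positive breast cancer line. Both knockdown libraries were made from T47D cells with stable knockdown of ERINA, a long noncoding RNA, one with the hairpin shRNA1 and the other with shRNA2. A single T47D library served as control; its description names a control hairpin, while its shRNA label reads None. Hairpins were delivered by lentivirus and infected cells were selected with puromycin, per the labels. Each condition is 1 library, and nothing in the labels says how many clones or cultures stand behind it. The 2 knockdown libraries therefore differ by hairpin as well as by any technical spread.

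ERINA has no row of that name. RefSeq gives it as a synonym of LINC00992, whose level in the shRNA1 library was 5.21 FPKM and in the shRNA2 library 8.91 FPKM, against 63.4 FPKM in the control (FPKM counts fragments per length of transcript and per size of the library). Summed FPKM was 860240 with shRNA1, 808451 with shRNA2 and 790290 in the control, and read depth itself is not part of the deposited values. All 10 luminal epithelial markers were detected, between 16.5 and 5210 FPKM. Leukocyte markers summed to 0.397 and 0.385 FPKM with shRNA1 and shRNA2, against 1.40 FPKM in the control, and CD163 was listed at 0 in each library. Endothelial markers summed to at most 0.0437 FPKM in a library. Erythroid markers summed to 0.0828 FPKM with shRNA1 and to 0 with shRNA2, against 0.345 FPKM in the control, with HBB, ALAS2 and SLC4A1 listed at 0 throughout. Fibroblast markers summed to 2.34 and 2.27 FPKM in the knockdown libraries and 1.01 FPKM in the control, with COL3A1 and FAP at 0. Of 5 basal or myoepithelial markers 2 reached a mean of 1 FPKM, and all 5 summed to 11.4 and 13.4 FPKM in knockdown and 12.3 FPKM in the control. The part of these markers in any result below was not tested.

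Most cells take up iron bound to transferrin, which the transferrin receptor (TFRC) brings into endosomes, where SLC11A2 carries the reduced metal into the cytosol. Iron that is not used is stored inside ferritin, a shell of heavy (FTH1) and light (FTL) chains, is freed again when NCOA4 delivers ferritin to lysosomes, and leaves the cell through ferroportin (SLC40A1). The iron regulatory proteins IRP1 (ACO1) and IRP2 (IREB2) bind hairpins called iron-responsive elements when iron is scarce. Binding in a 5′ UTR blocks translation, and binding in the 3′ UTR of TFRC protects the transcript from decay.

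These elements are shown first, since they are a regulatory sequence found in some of the genes. The choice of genes did not use them as a measured value. It was made for iron handling, which these elements control, so the share of genes with a match is a description only. The search read GENCODE 29 transcripts on the transcript strand for a motif of 17 bases, made of a bulged C, any 5 stem bases, the loop CAGTGN and 5 further stem bases that pair with the first 5 by Watson-Crick or G-U pairs. Here N is any base, overlapping matches were counted, and the opposite strand was not searched. In the lines below, all on GRCh38 and written 5′ to 3′ with T for U, the bulged C and the loop are in capitals. A match is a description of the letters and not a measured binding site.
FTH1 5′ UTR, chr11:61967573-61967602, minus strand: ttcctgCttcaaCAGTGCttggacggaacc
FTL 5′ UTR, chr19:48965335-48965364, plus strand: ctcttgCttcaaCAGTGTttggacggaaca
SLC40A1 5′ UTR, chr2:189580660-189580689, minus strand: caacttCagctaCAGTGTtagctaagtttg
TFRC 3′ UTR, element 1, chr3:196050978-196051007, minus strand: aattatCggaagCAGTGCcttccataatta
TFRC 3′ UTR, element 2, chr3:196050574-196050603, minus strand: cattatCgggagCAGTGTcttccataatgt
TFRC 3′ UTR, element 3, chr3:196050509-196050538, minus strand: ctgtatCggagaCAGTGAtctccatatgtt
TFRC 3′ UTR, element 4, chr3:196050462-196050491, minus strand: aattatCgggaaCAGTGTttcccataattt

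With all 5 stem pairs, 4 of the 8 genes held the motif in a UTR. Over protein-coding genes with the UTR in question, 0.192% of 18798 held it in a 5′ UTR and 0.692% of 19077 in a 3′ UTR. The ferritin elements shared 26 of 30 bases and 16 of the 17 bases of the motif. Each had 1 G-U pair in the stem, where the SLC40A1 element had 0. Among the TFRC elements, elements 1 and 2 shared 25 of 30 bases and elements 2 and 4 also 25, whereas element 3 shared 19 or 20 with each of the others. A TFRC element and a ferritin element had 9 to 13 bases of 30 in common. Positions here and below are from 1 transcript per gene, the longest of those with the most matches. There the bulged C stood 64 bases into the 5′ UTR of FTH1, 40 bases into that of FTL and 204 bases into that of SLC40A1. In the TFRC transcript the 4 elements began 940, 1344, 1409 and 1456 bases into the 3′ UTR.

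The search with 4 of 5 stem pairs added SLC11A2, ACO1 and IREB2, each with 1 match in the 3′ UTR, which makes 7 of 8 genes. At this looser setting 1.553% of protein-coding genes held a match in a 5′ UTR and 4.754% in a 3′ UTR. Among those with a mean of at least 1 FPKM the shares were 1.731% and 5.466%. SLC11A2 is shown because its 3′ element is a known target of the IRPs.
SLC11A2 3′ UTR, chr12:50988268-50988297, minus strand: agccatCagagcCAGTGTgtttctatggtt
ACO1 3′ UTR, chr9:32452986-32453015, plus strand: aagtatCttggcCAGTGTctcaaccttgcc
IREB2 3′ UTR, chr15:78500969-78500998, plus strand: catttgCtttcaCAGTGAtgagtgagagga
In SLC11A2 it began 33 bases after the stop codon. The matches in ACO1 and IREB2 lay 2880 and 2831 bases into long 3′ UTRs and are shown for contrast. NCOA4 held no match at either setting. Not every transcript carries its gene's element. It was in 3 of 4 annotated coding transcripts of TFRC, 7 of 8 of FTH1, 1 of 1 of FTL, 1 of 5 of SLC40A1 and 5 of 18 of SLC11A2. The deposited values are per gene, so transcripts with and without an element could not be told apart in the libraries.

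**Figure D1:**
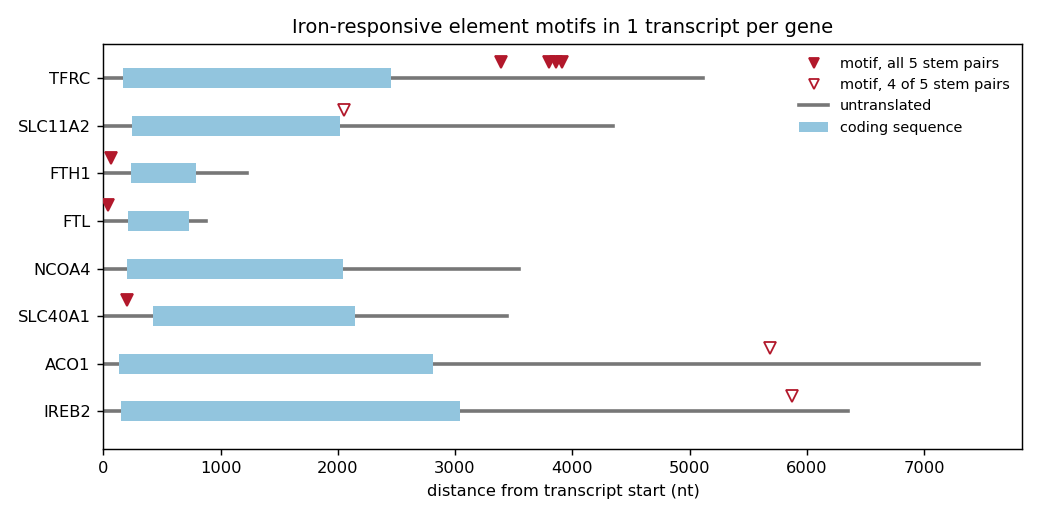
Position of the motif in 1 GENCODE 29 transcript per gene, drawn to scale in nucleotides from the transcript start (bars, coding sequence; grey lines, untranslated; filled triangles, all 5 stem pairs; open triangles, 4 of 5). The 3 filled elements of FTH1, FTL and SLC40A1 lie before the coding sequence, and the 4 of TFRC lie after it.

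Between ERINA knockdown and control, the transcripts of uptake by TFRC and export by SLC40A1 were higher with both hairpins. Those of FTH1, both IRPs, SLC11A2 and NCOA4 were lower by smaller amounts, and that of FTL was close to the control. In all, 2 of the 8 genes were higher with both hairpins and 5 were lower, while FTL lay on either side of the control. Scaling the libraries to equal totals put FTL below the control with both hairpins (-0.05 and -0.09 on the log2 scale), and scaling to equal upper quartiles put SLC11A2 on either side (0.02 and -0.14); the other 6 kept their direction. Over the 13112 genes with a mean of at least 1 FPKM, 42.4% were higher with both hairpins and 42.6% were lower. All 8 genes passed this filter and had the status OK in each library. Among them TFRC alone was at least 1.5-fold higher with both hairpins, which holds for 5.66% of genes tested, and 0 were at least 1.5-fold lower, which holds for 7.21%. The deposited intervals of both hairpins and the control overlapped for all 8; these intervals reached 32.1% to 47.4% to each side of the value, and neither their level nor the program that made them is known. Of all genes tested, 0.0839% had both hairpin intervals above the control interval and 0.221% below it. Changes are given on log2(FPKM + 0.5), where the median gene stood at -0.0006 in the shRNA1 library and at 0.0 in the shRNA2 library. In bulk RNA, fewer cells of a kind and less RNA per cell cannot be told apart.

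**Figure D2:**
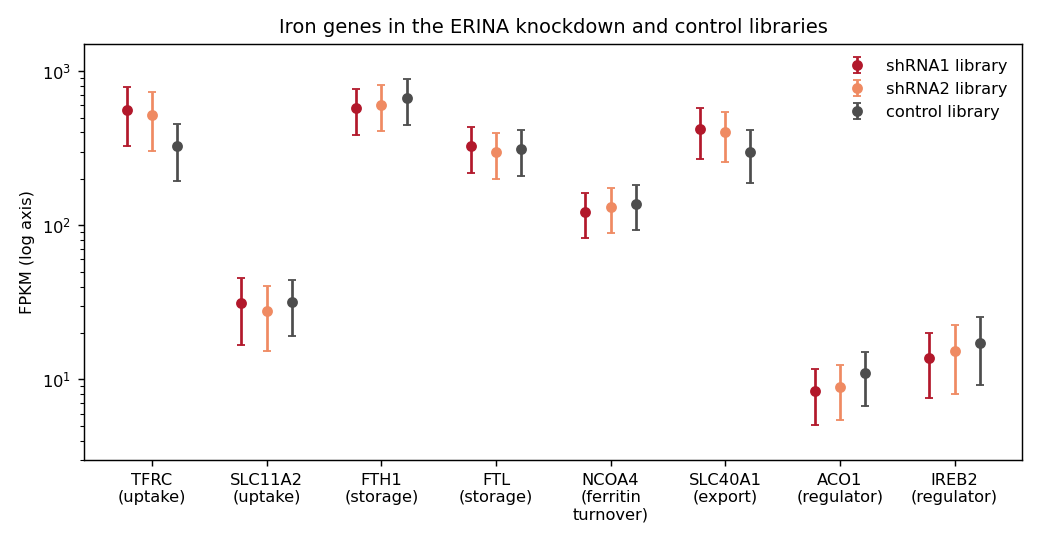
FPKM of the 8 genes (log axis) in the shRNA1, shRNA2 and control libraries, 1 library each; points are the deposited values and bars the deposited lower and upper bounds. TFRC and SLC40A1 sit higher in both knockdown libraries, at 559.6 and 515 against 325 FPKM for TFRC, and the bars overlap for every gene.

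TFRC (ENSG00000072274, minus strand, 196027183 to 196082189 on chromosome 3), the receptor for transferrin-bound iron, was at 559.6 FPKM in the shRNA1 library (deposited interval 328 to 791) and 515 FPKM in the shRNA2 library (302 to 729), against 325 FPKM in the control (195 to 454). The knockdown libraries averaged 537.5 ± 31.3 FPKM (SD, n = 2 hairpins), 1.66 times the control value. Both lay above the upper bound of the control, although their own intervals reached below it. On the log2 scale the change was 0.79 with shRNA1 and 0.67 with shRNA2. Of 11546 protein-coding genes tested, 287 had a larger mean change upward. By level it ranked 134 and 144 among these genes in the shRNA1 and shRNA2 libraries and 224 in the control. MKI67, a marker of cycling cells, went the other way, at 2.71 and 3.24 FPKM with shRNA1 and shRNA2 against 5.57 FPKM in the control. Its part in the TFRC values was not tested.

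SLC11A2 (ENSG00000110911, minus strand, 50979401 to 51028566 on chromosome 12), the ferrous iron carrier also known as DMT1, was at 31.1 FPKM in the shRNA1 library (16.7 to 45.6), 27.8 FPKM in the shRNA2 library (15.4 to 40.2) and 31.5 FPKM in the control (19.2 to 43.9). The shRNA1 library was level with the control, and the log2 change of the shRNA2 library was -0.18. The FPKM ratio of TFRC to SLC11A2, both per length, was 17.98 and 18.54 in the knockdown libraries and 10.29 in the control.

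FTH1 (ENSG00000167996, minus strand, 61959718 to 61967660 on chromosome 11), the ferritin heavy chain that oxidises iron on entry into the shell, was at 578 FPKM in the shRNA1 library (387 to 769) and 607 FPKM in the shRNA2 library (406 to 808), against 666 FPKM in the control (446 to 885). Its values were lower in both knockdown libraries, with log2 changes of -0.20 and -0.13, and 3829 of 11546 protein-coding genes had a larger mean change downward. FTL (ENSG00000087086, plus strand, 48965301 to 48966878 on chromosome 19), the light chain that promotes deposition of the iron core, was at 326 FPKM in the shRNA1 library (218 to 433.5), 297 FPKM in the shRNA2 library (199 to 396) and 310.5 FPKM in the control (207 to 414). Its log2 changes of 0.07 and -0.06 had opposite signs, and the control lay between the hairpin libraries. Summed, both chains came to 903 and 905 FPKM with shRNA1 and shRNA2, against 976 FPKM in the control. There were 1.78 and 2.04 FPKM of heavy chain for each FPKM of light chain in the knockdown libraries and 2.14 in the control.

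Ferritin genes have many processed pseudogenes, between which reads can be divided. The table lists 25 named after FTH1 and 16 named after FTL, and 0 of either set reached a mean of 1 FPKM. FTH1 copies summed to 4.34 and 3.88 FPKM with shRNA1 and shRNA2 and 4.29 FPKM in the control, or 0.751% and 0.639% of FTH1 in knockdown and 0.644% in the control. FTL copies summed to 0.555 and 0.646 FPKM with shRNA1 and shRNA2 and 0.434 FPKM in the control, at most 0.217% of FTL. How the authors' counting placed reads that fit several copies is not stated in the sources. FTH1 also overlaps BEST1 on the other strand, at 1.07 and 0.989 FPKM in the knockdown libraries and 1.70 FPKM in the control.

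NCOA4 (ENSG00000266412, minus strand, 46005088 to 46030714 on chromosome 10), the receptor that takes ferritin to lysosomes, was at 122 FPKM in the shRNA1 library (82.6 to 162) and 132 FPKM in the shRNA2 library (89.6 to 174), against 137 FPKM in the control (92.4 to 182). Both knockdown values were lower, at 0.891 and 0.962 times the control, and lay inside its deposited interval. The ratio of FTH1 to NCOA4 was 4.73 and 4.60 in knockdown and 4.85 in the control, so the FPKM of receptor and cargo stood in nearly the same proportion in the 3 libraries.

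SLC40A1 (ENSG00000138449, minus strand, 189560579 to 189583758 on chromosome 2), which encodes the iron exporter ferroportin, was at 422 FPKM in the shRNA1 library (271 to 573) and 400.2 FPKM in the shRNA2 library (257 to 543.5), against 299.6 FPKM in the control (187 to 412). It averaged 411 ± 15.5 FPKM in knockdown (SD, n = 2 hairpins), 1.37 times the control. The change was 0.49 and 0.42 on the log2 scale, second to that of TFRC, and 895 of 11546 protein-coding genes had a larger mean change upward. The TFRC to SLC40A1 ratio was 1.33 and 1.29 in the knockdown libraries and 1.08 in the control. Partners of ferroportin were barely detected. The copper oxidases that load exported iron onto transferrin, CP and HEPH, were at 0.134 and 0.326 FPKM with shRNA1, at 0.318 and 0.202 FPKM with shRNA2 and at 0.295 and 0.149 FPKM in the control. HAMP, the gene of hepcidin, which triggers the degradation of ferroportin, was at 0.146 FPKM with shRNA1 and 0 with shRNA2, against 0.0234 FPKM in the control.

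ACO1 (ENSG00000122729, plus strand, 32384603 to 32454769 on chromosome 9), which encodes IRP1 or, with an iron-sulfur cluster, cytosolic aconitase, was at 8.36 FPKM in the shRNA1 library (5.09 to 11.6) and 8.95 FPKM in the shRNA2 library (5.46 to 12.4), against 10.9 FPKM in the control (6.74 to 15.1). IREB2 (ENSG00000136381, plus strand, 78437431 to 78501456 on chromosome 15), which encodes IRP2, was at 13.8 FPKM in the shRNA1 library (7.54 to 20.1) and 15.2 FPKM in the shRNA2 library (7.995 to 22.4), against 17.3 FPKM in the control (9.15 to 25.5). Both regulators were lower in both knockdown libraries, ACO1 at 0.766 and 0.820 times the control value and IREB2 at 0.799 and 0.877 times. Of 11546 protein-coding genes tested, 2400 had a larger mean change downward than ACO1 and 2998 than IREB2. IREB2 stood above ACO1 throughout, at a ratio of 1.66 and 1.70 in knockdown and 1.59 in the control, with overlapping intervals. FBXL5, the iron-sensing ligase subunit that marks IRP2 for destruction, was at 17.3 FPKM with both hairpins and 20.7 FPKM in the control (limma Benjamini-Hochberg adjusted p of 0.185 over all genes tested).

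**Figure D3:**
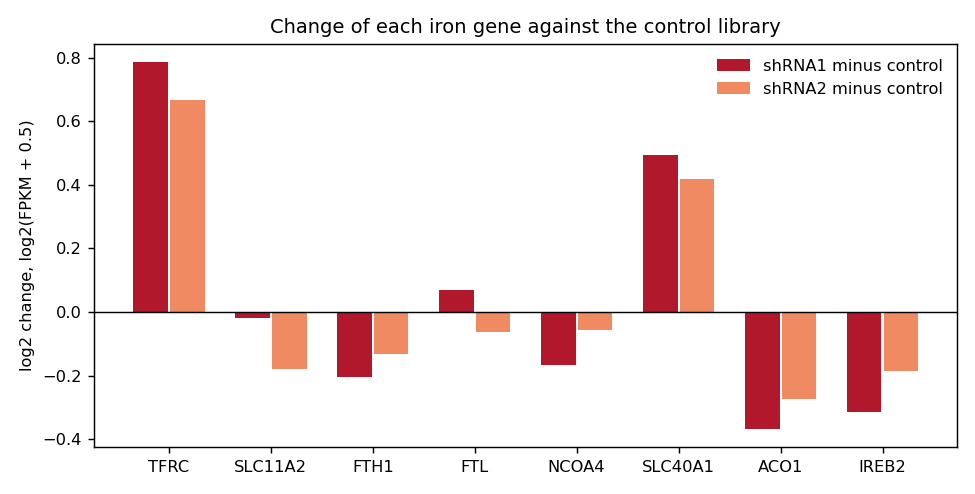
Change of the 8 genes on log2(FPKM + 0.5), shRNA1 minus control and shRNA2 minus control, 1 library each. TFRC (0.79 and 0.67) and SLC40A1 (0.49 and 0.42) lie above 0 with both hairpins, and FTL lies on either side of 0, though below it with both hairpins at equal library totals.

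By level the 8 genes formed 3 tiers in each library. FTH1, TFRC, SLC40A1 and FTL led, from 297 FPKM for FTL with shRNA2 to 666 FPKM for FTH1 in the control, NCOA4 stood alone below them, and SLC11A2, IREB2 and ACO1 followed. The deposited intervals of neighbours overlapped within the top and bottom tiers and were apart on either side of NCOA4, in each of the 3 libraries. Some genes of a tier that were not neighbours were also apart. FTH1 was clear of FTL and SLC40A1 in the control and of FTL with shRNA2, and SLC11A2 was clear of ACO1 in each library. In the knockdown libraries the order of the top tier was FTH1, TFRC, SLC40A1, FTL. In the control it was FTH1, TFRC, FTL, SLC40A1, with the last 3 between 299.6 and 325 FPKM. For each FPKM of FTH1 there was 0.969 and 0.849 FPKM of TFRC with shRNA1 and shRNA2, against 0.488 in the control. All 8 genes summed to 2061 and 2004 FPKM in knockdown and 1797 FPKM in the control, although only TFRC and SLC40A1 were higher with both hairpins. The summed FPKM of all genes was also higher in knockdown, at 860240 and 808451 against 790290 in the control. For 7 of the 8, all but SLC11A2, the shRNA1 library lay farther from the control than the shRNA2 library did. Both share that control, and the share of all genes with this order was not computed. The order depends on scaling. With equal totals FTL (-0.0539 with shRNA1 and -0.0948 with shRNA2) and SLC40A1 (0.3714 and 0.3842) also lay farther with shRNA2.

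Genes with the most similar pair of changes were sought among 8791 other protein-coding genes with a mean of at least 5 FPKM, by Euclidean distance over the 2 log2 changes of these 3 libraries. Nearest to TFRC were RERG (61.3 and 57.3 FPKM in knockdown, 35.8 FPKM in the control) and CCDC125, and 47 genes lay within a distance of 0.1. SLC40A1 had STXBP4 and COA1 as neighbours, with 265 genes within 0.1. The nearest pair was C2CD2 and LAGE3 for SLC11A2, RAB35 and TMED4 for FTH1, PPIF and ZFPL1 for FTL, and C6orf89 and RYBP for NCOA4. ACO1 was closest to SLC25A15 and RRAGD, and IREB2 to BCKDK and CAT. Those 6 genes had 349 to 800 others within 0.1, so their patterns over 3 libraries were shared by many genes. The median gene lies near 0, so a gene with a larger change tends to have fewer neighbours. The lower counts of TFRC and SLC40A1 are therefore not a result apart from the size of their changes.

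**Figure D4:**
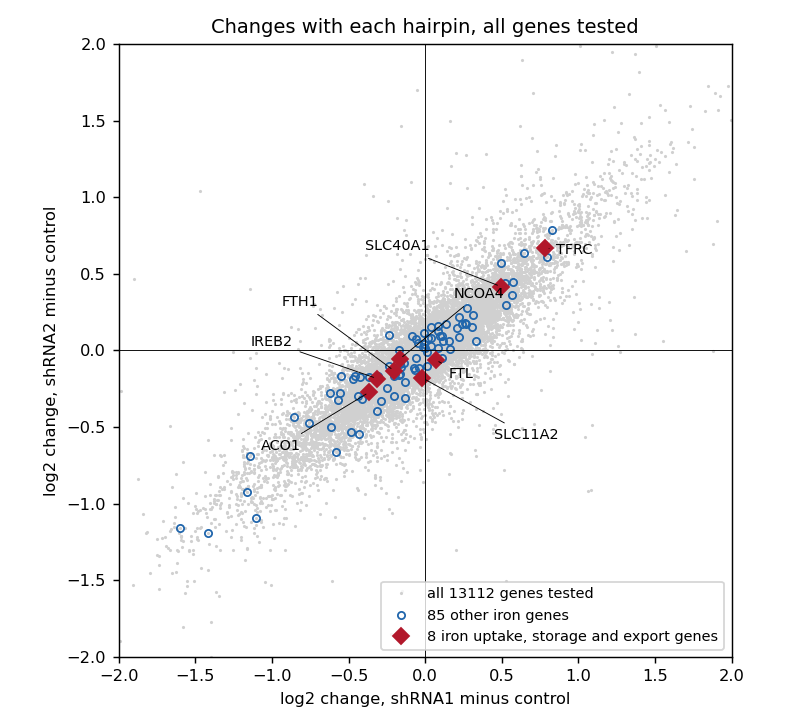
Change on log2(FPKM + 0.5) against the shared control, with shRNA1 on the x axis and shRNA2 on the y axis, for all 13112 genes tested (grey), 85 other iron genes (open circles) and the 8 genes described (diamonds). The axes stop at 2, which leaves 157 genes undrawn, and TFRC and SLC40A1 are the 2 diamonds in the upper right.

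Around these genes, 115 others of iron and heme handling were listed in 8 role groups, and 85 of them passed the filter. By limma over all 13112 genes, with Benjamini-Hochberg adjustment, 0 rose and 0 fell, against 0.0839% and 0.267% of all genes. At an unadjusted limma p under 0.05 there were 9 higher and 16 lower, against 13.7% and 15.9% of all genes. With protein-coding genes tested alone, limma called 5 higher and 11 lower, where 7.11% and 11.3% of 11546 genes were called. The median log2 change of the 85 was -0.07 in the shRNA1 library and -0.05 in the shRNA2 library. Over all protein-coding genes tested it was -0.0199 and -0.0124. For 0 of the 85 were both hairpin intervals clear of the control interval. Such genes were rare among all genes tested, with 0.0839% above and 0.221% below. The adjusted limma p-values (Benjamini-Hochberg) of the genes named below ran from 0.0829 to 0.835 over all genes tested, with values from 0.00482 to 0.937 over the alternatives. Most were named for the size of their change in these libraries, so calls among them follow in part from that choice.

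Of 12 measured genes of uptake and endosomal reduction, 4 were higher and 4 lower with both hairpins (median -0.03). The metalloreductases, which reduce ferric iron before transport, went both ways. STEAP2 was at 13.3 and 12.9 FPKM in knockdown and 7.27 FPKM in the control, and CYBRD1 at 33.1 and 32.9 FPKM in knockdown and 21.0 FPKM in the control. STEAP3, the endosomal reductase of the transferrin cycle in erythroid cells, was at 2.79 and 2.81 FPKM in knockdown and 6.56 FPKM in the control. LCN2, a protein that binds iron-loaded siderophores, was at 9.92 and 13.6 FPKM in knockdown and 31.1 FPKM in the control, and its shRNA1 interval (5.02 to 14.8) lay below that of the control (18.3 to 43.9), while its shRNA2 interval (7.15 to 20.1) overlapped it. In limma on the protein-coding genes alone, STEAP2 and CYBRD1 passed as higher and STEAP3 and LCN2 as lower. TFR2, the second transferrin receptor, stayed below the filter at 0.365 and 0.543 FPKM in knockdown and 0.679 FPKM in the control.

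Of 5 measured genes of the export oxidase and hepcidin group 2 were higher and 3 lower with both hairpins (median -0.06), among them BMPR2 and BMPR1A, BMP receptors of hepcidin control in liver, the serine protease TMPRSS2, and ACVR1, another BMP receptor, all within 1.5-fold of the control. Of 11 measured cytosolic chaperone and IRP control genes 5 were higher and 6 lower (median -0.14). CISD1, the outer mitochondrial membrane protein mitoNEET, was at 35.3 and 41.6 FPKM in knockdown and 79.5 FPKM in the control, and HERC2, a ligase that targets NCOA4, at 7.87 and 8.57 FPKM in knockdown and 12.3 FPKM in the control. PCBP2, a cytosolic iron chaperone, was at 103 and 93.0 FPKM in knockdown and 83.5 FPKM in the control. BOLA2B, at 6.48 and 5.57 FPKM in knockdown and 4.22 FPKM in the control, has a near-identical copy in BOLA2, and HERC2 has many partial copies, so division of their reads is uncertain. Limma on protein-coding genes alone passed CISD1 and HERC2 as lower, though the deposited lower bound of HERC2 was 0 in each library.

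Among 22 measured genes of mitochondrial iron import and iron-sulfur cluster assembly, 7 were higher and 10 lower with both hairpins (median -0.02). NFS1, the cysteine desulfurase that supplies sulfur, was at 26.5 and 31.6 FPKM in knockdown and 39.6 FPKM in the control. NFS1 overlaps the more abundant ROMO1 on the other strand. IBA57, a late assembly factor, was at 3.49 and 4.85 FPKM in knockdown and 6.73 FPKM in the control. HSCB, a cochaperone of cluster transfer that overlaps CHEK2, was at 8.70 and 8.68 FPKM in knockdown and 7.40 FPKM in the control. In the cytosolic assembly group, 4 of 9 were higher and 5 lower (median -0.11), with NUBP2, a scaffold protein, at 70.0 and 59.7 FPKM in knockdown and 48.5 FPKM in the control and MMS19, which hands clusters to DNA enzymes, at 26.4 and 30.2 FPKM in knockdown and 34.2 FPKM in the control. CIAO1 (higher) and NARFL (lower) differed less. NFS1 as lower and NUBP2 as higher passed limma on protein-coding genes alone, though the deposited lower bound of NFS1 was 0 in both knockdown libraries.

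Heme synthesis, the other large use of iron, had 3 of 10 measured genes higher and 5 lower with both hairpins (median -0.12). FECH, the ferrochelatase that inserts iron into heme, was at 10.8 and 15.0 FPKM in knockdown and 24.4 FPKM in the control, and ALAD, an early enzyme, at 7.90 and 7.26 FPKM in knockdown and 10.8 FPKM in the control. UROS, a middle enzyme, was at 41.6 and 36.5 FPKM in knockdown and 23.7 FPKM in the control, and UROD, the next enzyme, at 47.3 and 44.4 FPKM in knockdown and 39.2 FPKM in the control. In heme transport and breakdown 4 of 8 were higher and 4 lower (median -0.07). HMOX1, the inducible heme oxygenase that frees iron from heme, was at 6.28 and 6.04 FPKM in knockdown and 8.96 FPKM in the control, and BLVRA, a biliverdin reductase, at 131 and 120.2 FPKM in knockdown and 88.2 FPKM in the control. FLVCR2, which overlaps TTLL5 on the same strand, was at 3.09 and 2.89 FPKM in knockdown and 4.88 FPKM in the control, and PGRMC1, a heme-binding membrane protein, at 61.0 and 60.5 FPKM in knockdown and 56.5 FPKM in the control. With protein-coding genes tested alone, limma passed UROS and BLVRA as higher and FECH, ALAD, HMOX1 and FLVCR2 as lower. The deposited lower bound of FLVCR2 was 0 in each library.

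Iron drives lipid peroxidation, and 8 genes of that process and of ferroptosis were measured, 2 higher and 5 lower with both hairpins (median -0.26). LPCAT3, which builds polyunsaturated phospholipids, was at 1.27 and 1.56 FPKM in knockdown and 4.22 FPKM in the control. GPX4, which reduces lipid peroxides, was at 239.5 and 227 FPKM in knockdown and 298 FPKM in the control. ALOX15, a lipoxygenase, was at 3.64 and 3.85 FPKM in knockdown and 2.44 FPKM in the control, and CHAC1 at 1.65 and 1.77 FPKM in knockdown and 1.53 FPKM in the control. LPCAT3, which overlaps EMG1 on the other strand, and GPX4 passed as lower in limma on protein-coding genes alone. The deposited lower bound of LPCAT3 was 0 in both knockdown libraries.

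**Figure D5:**
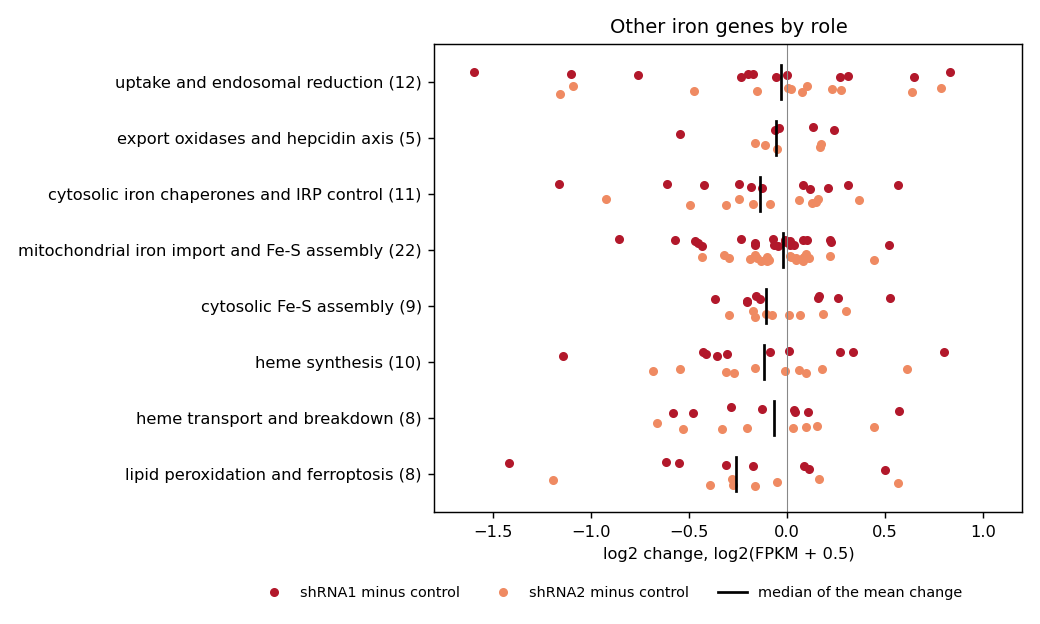
Change on log2(FPKM + 0.5) of 85 other iron genes in 8 role groups (number measured in brackets), shRNA1 minus control above and shRNA2 minus control below in each row, with a line at the median of the mean change. Points lie on both sides of 0 in each group, and the medians run from -0.26 to -0.02. The same median over all protein-coding genes tested was -0.016.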

How the data were processed

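The authors deposited 1 table of FPKM per gene with a column for each of 3 libraries, and a lower and an upper confidence bound and a status beside each value, per the file headers. The submitters' processing notes name STAR, RSEM and GRCh38, without versions or roles, while the column layout of value, bounds and status resembles that of Cuffdiff. Which program made the FPKM and its bounds is therefore unsettled, and so is what the intervals cover. Neither the annotation release, the level of the bounds and the use of strand nor a scaling step is given in the sources used here.

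Gene types, coordinates and transcripts came from GENCODE 29 on GRCh38 (57435 of 58039 gene identifiers matched, 99.0%), and ERINA and FDX1L were found through RefSeq synonyms. Knockdown (2 libraries) was compared with control (1 library) by limma 3.58.1 (lmFit, eBayes with trend) in R 4.3.3 on log2(FPKM + 0.5), for the 13112 genes that averaged at least 1 FPKM, with Benjamini-Hochberg adjustment over all of them and a threshold of 0.05. There is 1 residual degree of freedom, from the hairpin libraries, and eBayes moderates the variance of each gene toward a trend over all genes. The control is assumed to vary like the hairpin libraries. The p-values thus rest on the spread between those 2 libraries, pooled in part over genes, and hold no spread between control libraries. Python 3.11.15, pandas 2.3.3, numpy 2.4.6 and matplotlib 3.10.9 made the tables and plots.

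The 8 genes, the role groups and the markers were chosen with earlier results of these data known. Genes named from a role group are up to 2 higher and 2 lower with both hairpins, by the smaller absolute change; LCN2's interval, FBXL5, TFR2, CP, HEPH, HAMP and MKI67 were added after their values were seen. Some genes that this rule would name are not reported here. No library shared a nonzero FPKM with another in any gene (0 in each pair). Alternatives were pseudocounts of 0.1 and 1, no filter or a mean FPKM of at least 5, equal totals or upper quartiles, other eBayes options, protein-coding genes alone, each hairpin left out, and, for FTH1 and FTL, pseudogene FPKM added.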

Additional observations from a re-analysis of the deposited data

How the results depend on the processing

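No paired analysis was possible because the control is 1 library. Without either hairpin library limma has no residual degree of freedom, so those alternatives give values only. The mean change over both hairpins kept its direction for 7 of the 8 genes under other pseudocounts, both scalings and with either hairpin left out, though with equal upper quartiles SLC11A2 lay on either side of the control (0.02 with shRNA1 and -0.14 with shRNA2). Adding pseudogene FPKM, run for FTH1 and FTL alone, left their directions as they were. The exception was FTL, whose mean log2 change of 0.0031 became -0.0743 with equal totals and ran from -0.062 without shRNA1 to 0.0683 without shRNA2. Equal totals shift the median gene by -0.1154 with shRNA1 and -0.0289 with shRNA2, and gave SLC40A1 0.38, FTH1 -0.25 and ACO1 -0.39. Over all genes limma called 11 higher and 35 lower; equal totals gave 65 and 110, no filter 0 and 0 (2113 and 2926 at an unadjusted p under 0.05), robust eBayes 430 and 595, protein-coding genes alone 821 and 1299, and eBayes without trend 6 higher. For the other iron genes the 0 and 0 became 4 and 4 with robust eBayes (BLVRA, CYBRD1, STEAP2 and UROS higher, CISD1, LCN2, LPCAT3 and STEAP3 lower) and 5 and 11 with protein-coding genes alone. Genes at least 1.5-fold from the control with both hairpins numbered 742 higher and 946 lower. This became 3070 and 3726 with no filter and 283 and 511 with the filter at 5 FPKM, and 453 higher among protein-coding genes alone; with 1 hairpin left out it ran from 950 to 1243 higher and from 1172 to 1665 lower. For other iron genes it was 3 higher and 7 lower, with 7 and 11 without a filter, 3 lower at a mean FPKM of at least 5, and 4 higher and 7 to 11 lower with 1 hairpin left out. Leaving out a hairpin gave 0 to 1 other iron genes with an interval below the control, LCN2 without shRNA2. The share of all genes at that setting was not computed, so this count cannot be set against it. Genes with the motif went from 4 to 7 with 4 of 5 pairs. Unless stated, the cause was not tested. Without counts, depth limits cannot be given.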
